A study of Bos taurus with 45 samples.

Results

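CYP1A1 (ENSBTAG00000001021) and CYP1B1 (ENSBTAG00000010531) are 2 of the 24616 bovine genes in the data, and both were among the 11516 genes taken as expressed, those with RPM over 1 in all 15 heifers on at least 1 diet. RPM is the number of reads on a gene per 1000000 reads on genes. The pair was chosen by its RPM in the second step of a grain transition, from 75% to 92% grain. In that step the mean expression of both went down in the heifers whose ruminal pH fell. It went up in the heifers whose ruminal pH rose. That contrast is therefore described and not tested. The samples on the first diet and the heifers with a balanced pH did not enter that contrast, although the genes were chosen with earlier results of these data known. The comparisons of the later diets with the first use, for 10 of the 15 heifers, the samples on 75% and 92% grain that entered the choice, and are not independent of it.

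CYP1A1 and CYP1B1 encode cytochrome P450 monooxygenases of the CYP1 family, enzymes of the endoplasmic reticulum that oxidise polycyclic aromatic compounds, plant flavonoids, steroids and fatty acids. Both are textbook target genes of the aryl hydrocarbon receptor (AHR), which enters the nucleus once it has bound a planar ligand, pairs with ARNT and binds response elements near its target genes. CYP1A1 is known for low basal and strongly inducible expression in epithelia that face diet or air, and it also clears AHR ligands. CYP1B1 is expressed mainly outside the liver, also in mesenchymal cells, and hydroxylates estradiol. The ruminal papillae sampled here are finger-like folds of a stratified squamous epithelium over a connective tissue core, in contact with feed and its fermentation products.

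Ruminal papillae were taken from 15 Angus-Hereford cross beef heifers, about 8 months old, once on each of 3 diets, which gave 45 RNA-seq samples. The diets are called by the grain percentages of the labels, 3%, 75% and 92%; the study's text gives 0%, 72% and 89% for the same diets. Every heifer underwent the same stepwise grain transition, called rapid in the labels and both rapid and gradual in the study's text. Each was healthy by its label, although the study's text proposes that some may have developed subacute acidosis on the final diet. Biopsies were taken on days 3, 15 and 26, so that diet, day and order of feeding cannot be told apart. Each heifer served as its own baseline. By the study's list, ruminal pH went down from 75% to 92% grain in the down group (DG, heifers 170, 182, 192, 236 and 314) and up in the up group (UG, heifers 178, 262, 286, 352 and 360). The other 5 heifers (172, 246, 258, 294 and 362) were taken as its balanced group (BG). The sample labels do not give these pH groups.

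Depth, recovered from the RPM, was 30.4 ± 3.53 M reads on genes (SD, n = 45, where M stands for 1000000 reads), from 22.5 to 37.1 M. Its mean exceeds the mean number of reads per sample in the study's text, and this difference was not resolved. CYP1A1 held 1110 to 12546 reads per sample and CYP1B1 112 to 2792, so that the counting error of a single value was at most 3.00% and 9.45%. The samples of heifers 172 and 170 on 3% grain were the least like the other samples of their diet (median correlation across genes 0.957 and 0.963). On that diet they also held the lowest (172) and the highest (170) value of both CYP1 genes, and results that rest on them are given without them below. The files name genes by Ensembl identifier only, so the other genes of the AHR pathway and markers of the cell types in papillae were not analysed here, and the labelled tissue was not checked against markers. In bulk tissue, fewer cells of a type and less RNA per cell cannot be told apart.

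CYP1A1 was highest on 3% grain and about equally low on both high grain diets. On 3% grain its expression ranged from 54.4 to 423 RPM with a median of 184, on 75% grain from 54.4 to 237 with a median of 88.7, and on 92% grain from 37.8 to 254 with a median of 79.1. The means were 181 ± 95.5, 96.7 ± 44.1 and 94.2 ± 58.2 RPM (SD, n = 15 heifers each). The ranges of the 3 diets overlapped widely, because single heifers spread by 7.77-fold on 3% grain, 4.36-fold on 75% grain and 6.72-fold on 92% grain.

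CYP1B1 showed the same order of the first diet over the others. Its expression ranged from 14.2 to 94.1 RPM with a median of 33.2 on 3% grain, from 4.97 to 50.3 with a median of 11.6 on 75% grain, and from 5.82 to 33.3 with a median of 15.6 on 92% grain. The means were 36.1 ± 21.0, 16.1 ± 11.1 and 17.1 ± 7.46 RPM (SD, n = 15). Between 75% and 92% grain, the neighbours in this order, the means of both genes differed by less than the SD of either diet. RPM is not scaled to gene length, and levels of the 2 genes are therefore not set against each other.

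**Figure D1:**
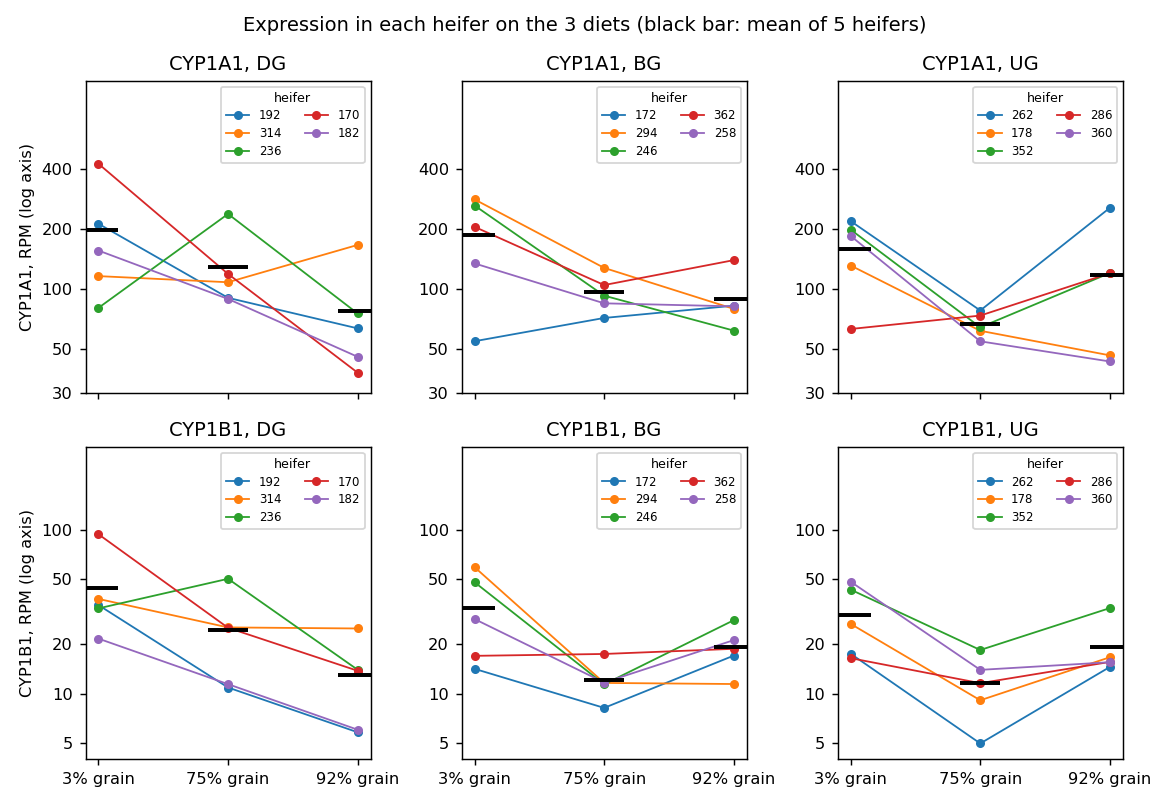
Expression of CYP1A1 (upper row) and CYP1B1 (lower row) in RPM on a log axis for each heifer on 3%, 75% and 92% grain, with 1 panel for each pH group, 1 line per heifer and a black bar at the mean of 5 heifers. Most lines fall from 3% to 75% grain in all 3 groups, and from 75% to 92% grain most go on falling in DG while the CYP1B1 lines of UG rise.

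The first comparison asked how expression differed between the transition diet of 75% grain and the starting diet over all 15 heifers. Unless called paired, the limma tests here and below treated the samples as unpaired, with no term for the heifer. Both genes were lower on 75% grain. CYP1B1 fell by 1.13 on the log2(RPM + 1) scale (SE 0.26, limma with Benjamini-Hochberg adjustment over all genes, adjusted p = 0.00267), a 2.18-fold lower level on that scale, and was lower in 13 of 15 heifers. CYP1A1 fell by 0.80 (SE 0.23, adjusted p = 0.0148), a 1.74-fold lower level, in 12 of 15 heifers. Of all genes tested, 1.54% were called in this comparison, with 0.05 as the limit of the adjusted p and 1.5 as the least fold change, and 0.13% were called lower. CYP1B1 had the lowest log2 fold change of the 11516 genes and CYP1A1 the ninth lowest. With edgeR on the recovered reads CYP1B1 ranked 12 and CYP1A1 ranked 17, and with smaller pseudocounts CYP1B1 ranked 2.

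The heifers that went against the mean were few and differed between the genes. CYP1A1 was higher on 75% than on 3% grain in heifer 236 of DG (80.0 to 237 RPM), heifer 172 of BG (54.4 to 71.2) and heifer 286 of UG (62.7 to 73.2), which were the 3 heifers with the lowest CYP1A1 on 3% grain. CYP1B1 was higher in heifer 236 (33.2 to 50.3 RPM) and, by little, in heifer 362 of BG (17.0 to 17.5). Heifer 236 was the one animal in which both rose, against 11 heifers in which both fell. The share of all genes lower in at least 13 of 15 heifers was 1.78%, and 3.99% were lower in at least 12.

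The direction was the same in the mean of each pH group. CYP1A1 changed by a mean of -0.48 ± 1.30 on the log2 scale in DG, -0.77 ± 0.71 in BG and -1.14 ± 0.80 in UG (SD, n = 5 heifers each). CYP1B1 changed by -0.86 ± 0.96 in DG, -1.23 ± 0.93 in BG and -1.29 ± 0.50 in UG. It was lower in 4 of 5 heifers in DG, 4 of 5 in BG and 5 of 5 in UG. The differences between the groups lay within these SDs and were not tested, since the samples on 75% grain entered the choice of the genes.

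The second comparison set the final diet of 92% grain against 3% grain, and uses the same samples on 3% grain as the first. Both genes were again lower. CYP1B1 fell by 0.97 on the log2 scale (SE 0.24, limma, adjusted p = 0.00491), a 1.95-fold lower level, in 13 of 15 heifers, and CYP1A1 fell by 0.95 (SE 0.27, adjusted p = 0.0138), a 1.93-fold lower level, in 11 of 15. The share of all genes called was 2.07%, with 0.287% called lower, and the genes held ranks 15 (CYP1B1) and 16 (CYP1A1) from the lowest log2 fold change. Of all genes, 2.06% were lower in at least 13 of 15 heifers and 9.33% in at least 11. Another scaling changed the balance of calls over all genes, from 205 higher and 33 lower to 143 higher and 47 lower with TMM factors, and left both genes among the lower calls.

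CYP1A1 was higher on 92% than on 3% grain in heifer 314 of DG (115 to 166 RPM), heifer 172 of BG (54.4 to 82.1), and heifers 262 (218 to 254) and 286 (62.7 to 119) of UG. CYP1B1 was higher in the BG heifers 172 (14.2 to 17.1 RPM) and 362 (17.0 to 18.8). CYP1B1 was lower in 5 of 5 heifers in DG, 3 of 5 in BG and 5 of 5 in UG. The share of all genes with such counts was not taken. Its mean change on the log2 scale was -1.71 ± 0.86 in DG, -0.61 ± 1.02 in BG and -0.58 ± 0.59 in UG. The mean change of CYP1A1 was -1.30 ± 1.56 in DG, -0.91 ± 1.07 in BG and -0.62 ± 1.22 in UG (SD, n = 5 heifers each). The DG and UG samples on 92% grain entered the choice of the genes. Differences between the groups were therefore not tested, and nothing is read from them.

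Neither result turned on the samples of 170 and 172. Without both heifers, CYP1A1 fell by 0.81 (adjusted p = 0.0124) and CYP1B1 by 1.10 (adjusted p = 0.00389) from 3% to 75% grain, and by 0.87 (adjusted p = 0.0221) and 0.93 (adjusted p = 0.00802) from 3% to 92% grain, in the same limma test.

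**Figure D2:**
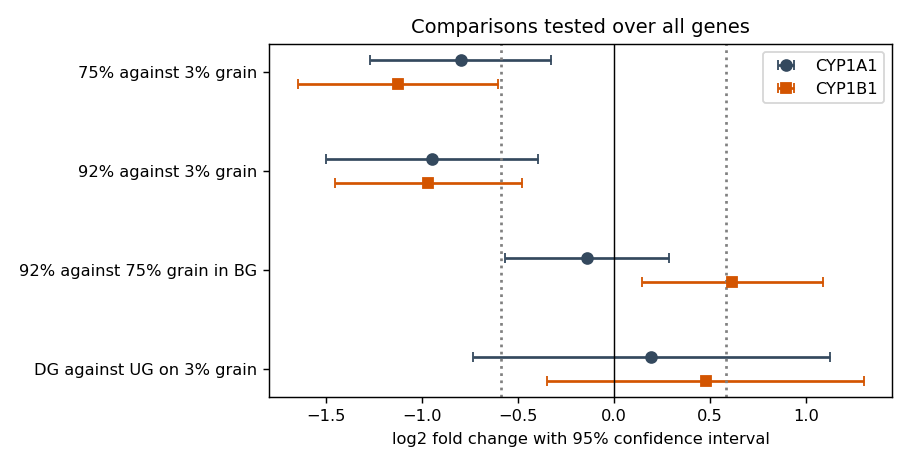
Log2 fold changes of CYP1A1 (circles) and CYP1B1 (squares) with 95% confidence intervals from limma, for the 4 comparisons that were tested, with dotted lines at a fold change of 1.5 in either direction. The intervals of both genes lie below 0 against 3% grain on both high grain diets, and those of DG against UG on 3% grain hold 0.

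The third comparison asked whether the pH groups already differed on 3% grain, before the transition. CYP1A1 averaged 197 ± 135 RPM in DG, 187 ± 93.4 in BG and 158 ± 62.6 in UG (SD, n = 5 each). CYP1B1 averaged 44.3 ± 28.5 RPM in DG, 33.4 ± 19.6 in BG and 30.4 ± 14.6 in UG. The groups overlapped for both genes. In DG, CYP1A1 stood at 80.0, 115, 155, 211 and 423 RPM in the 5 heifers, in BG at 54.4, 134, 204, 261 and 280, and in UG at 62.7, 131, 184, 198 and 218. CYP1B1 stood at 21.7, 33.2, 34.8, 37.9 and 94.1 RPM in DG, at 14.2, 17.0, 28.6, 47.9 and 59.2 in BG, and at 16.5, 17.5, 26.7, 43.2 and 48.3 in UG.

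No difference between the groups was detectable. DG exceeded UG by 0.20 on the log2 scale for CYP1A1 (95% confidence interval -0.73 to 1.13, limma adjusted p = 0.900) and by 0.48 for CYP1B1 (-0.35 to 1.30, adjusted p = 0.724), intervals that hold changes of more than the 1.5-fold threshold in either direction for CYP1A1 and upwards for CYP1B1. The call share in this comparison was 0.0% of all genes, with 914 at an unadjusted p under 0.05 in limma, and edgeR called 0. Exact two-sided permutation tests of RPM gave p = 0.675 for CYP1A1 and p = 0.429 for CYP1B1 between DG and UG, and after adjustment over the 6 tests of the 3 pairs of groups p was 0.889 in each. The sign of the CYP1A1 difference rested on single animals, at -0.14 without heifer 170 and -0.10 without heifer 286.

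The second step, from 75% to 92% grain, is given for DG and UG as the values that chose the genes. CYP1B1 of DG went from 10.9 to 5.82 RPM in heifer 192, from 11.4 to 6.03 in heifer 182, from 25.3 to 13.8 in heifer 170 and from 50.3 to 14.0 in heifer 236, and stayed level in heifer 314 (25.4 and 25.0). In UG it went from 4.97 to 14.6 RPM in heifer 262, from 9.12 to 16.7 in heifer 178, from 11.6 to 15.6 in heifer 286, from 14.0 to 15.6 in heifer 360 and from 18.5 to 33.3 in heifer 352. The mean changes were -0.85 ± 0.62 and 0.71 ± 0.47 on the log2 scale (SD, n = 5). Of the 11516 expressed genes, 5 genes (0.0434%) were lower in all DG heifers and higher in all UG heifers, a pattern close to the one by which CYP1B1 was picked, so that nothing is read from this share.

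CYP1A1 followed this pattern less completely. In DG it went from 118 to 37.8 RPM in heifer 170, from 88.7 to 45.5 in heifer 182, from 89.9 to 63.1 in heifer 192 and from 237 to 75.0 in heifer 236, whereas in heifer 314 it went up from 108 to 166. In UG it went up in heifers 262 (77.6 to 254 RPM), 352 (63.9 to 120) and 286 (73.2 to 119) and down in heifers 178 (61.4 to 46.2) and 360 (54.4 to 43.1). The mean changes were -0.82 ± 0.94 in DG and 0.51 ± 0.88 in UG, and the UG mean was 0.22 without heifer 262. On 75% grain CYP1A1 ranged from 54.4 to 77.6 RPM in UG and from 88.7 to 237 in DG. These values entered the choice of the genes, and the share of all genes with ranges apart was not counted. Nothing is therefore read from this separation.

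**Figure D3:**
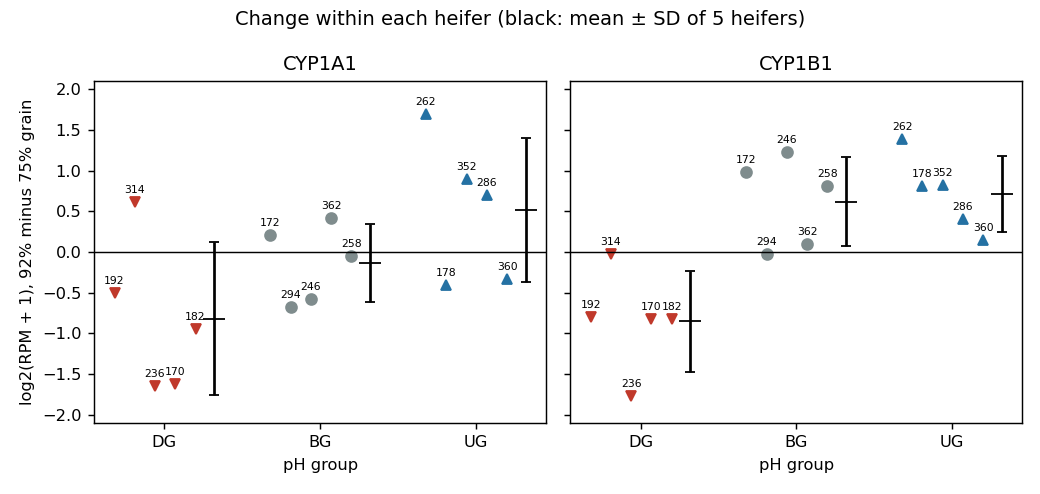
Change in log2(RPM + 1) from 75% to 92% grain for CYP1A1 and CYP1B1, with 1 labelled point per heifer in DG, BG and UG and, in black, the mean and SD of 5 heifers. CYP1B1 is at or below 0 in DG and above 0 in UG, and CYP1A1 has heifer 314 of DG and heifers 178 and 360 of UG on the other side of 0.

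The BG heifers offered the same step in animals outside the contrast that chose the genes. CYP1B1 went from 8.19 to 17.1 RPM in heifer 172, from 11.4 to 28.1 in heifer 246, from 11.7 to 21.2 in heifer 258 and from 17.5 to 18.8 in heifer 362, and stayed level in heifer 294 (11.6 and 11.5). Its mean was 12.1 ± 3.36 RPM on 75% and 19.3 ± 6.08 RPM on 92% grain (SD, n = 5), higher by 0.62 on the log2 scale (95% confidence interval 0.15 to 1.09). The interval stayed above 0 in limma with the heifers paired (0.21 to 1.03, adjusted p = 0.977), and with the other scalings and pseudocounts tried. The interval held 0 with all 45 samples in one fit (-0.21 to 1.45). It also held 0 without heifer 246 (-0.04 to 0.97) and without heifer 258 (-0.01 to 1.16). With 1 heifer left out the difference ran from 0.47 to 0.78. This difference did not pass the test over all genes (limma unadjusted p = 0.0145, adjusted p = 0.9996). The exact two-sided permutation test of RPM gave p = 0.0635, and with the heifers paired p = 0.125 where the smallest possible p is 0.0625. Higher values in at least 4 of 5 BG heifers were found for 20.5% of all genes. By log2 fold change CYP1B1 ranked 11502 of 11516 genes from the lowest.

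CYP1A1 did not move in a common direction in BG. It went down in heifers 294 (127 to 79.1 RPM), 246 (92.1 to 61.5) and 258 (84.3 to 81.4) and up in heifers 172 (71.2 to 82.1) and 362 (104 to 139). The mean went from 95.8 ± 21.2 to 88.6 ± 29.3 RPM, a log2 difference of -0.14 (95% confidence interval -0.56 to 0.29, limma adjusted p = 0.9996, exact permutation p = 0.643), and ran from -0.27 to -0.0027 with 1 heifer left out. In the same comparison 0.0% of all genes were called, with 261 at an unadjusted p under 0.05 in limma and 0 called by edgeR.

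How far the 2 genes followed each other within heifers was examined next. Both moved in the same direction in 12 of 15 heifers from 3% to 75% grain, with 11 lower and 1 higher, and in 11 of 15 from 3% to 92% grain, with 10 lower and 1 higher. CYP1A1 was lower in 12 and 11 heifers in these comparisons and CYP1B1 in 13 and 13. Genes that fall in most heifers share a direction often even where they move independently. No following within heifers is therefore read from these counts. From 75% to 92% grain the 2 genes shared a direction in 10 heifers, 5 lower and 5 higher. In DG 4 heifers had both genes lower, in UG 3 had both higher, and in BG 1 had both lower and 2 had both higher. The size of the change also went together across the 15 heifers, with Pearson r = 0.80 for 3% to 75% grain, 0.78 for 3% to 92% and 0.71 for 75% to 92%, given as descriptions because each contrast of the genes shares samples with the choice or with another contrast.

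The ratio of CYP1A1 to CYP1B1 in RPM was higher on 75% than on 3% grain in most heifers. Its size depends on gene length, so it is only compared between samples. Its median was 4.68 on 3% grain, 6.73 on 75% grain and 5.35 on 92% grain. From 3% to 75% grain it rose in 13 of 15 heifers, by little in heifers 170 and 360. This rise was not tested, and the DG and UG samples on 75% grain entered the choice of the genes. Between 3% and 92% grain it was higher in 8 and lower in 7. The lowest ratio of all, 2.19, belonged to BG heifer 246 on 92% grain, and the highest, 17.4, to UG heifer 262 on 92% grain.

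On 3% grain the levels of the 2 genes correlated across the 15 heifers, with Pearson r = 0.68 (permutation p = 0.00561, adjusted over 4 tests 0.00748) and Spearman rho = 0.62 (permutation p = 0.0156, adjusted 0.0156). The relation rested on few animals: without heifers 172 and 286, the farthest from the CYP1A1 median, r was 0.49 (permutation p = 0.0865), and without heifers 170 and 172 it was 0.42 (permutation p = 0.159). On 75% grain r was 0.68 and on 92% grain 0.37, given without a test.

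The spread among heifers of 1 pH group on 1 diet was also shared. Taking deviations from group means removes the mean changes by which the genes were chosen. The deviations still include the DG and UG samples on the later diets, which entered the choice. A call of a change in these groups also depends on the spread within them. The test of the deviations is therefore not independent of the choice. Deviations of the 45 samples from the mean of their pH group and diet correlated with r = 0.51 (permutation of whole heifers within pH group, p = 0.00173, adjusted 0.00692) and rho = 0.47 (p = 0.00386, adjusted 0.00748), and with r = 0.53 without the 2 samples farthest from the median of CYP1A1. Without heifers 170 and 172 r was 0.40 (permutation p = 0.0335). By group, r was 0.73 in DG, 0.58 in BG and 0.16 in UG over 15 samples of 5 heifers each; the difference between the groups was not tested. Within BG, r was 0.16 without the 2 samples farthest from the median.

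**Figure D4:**
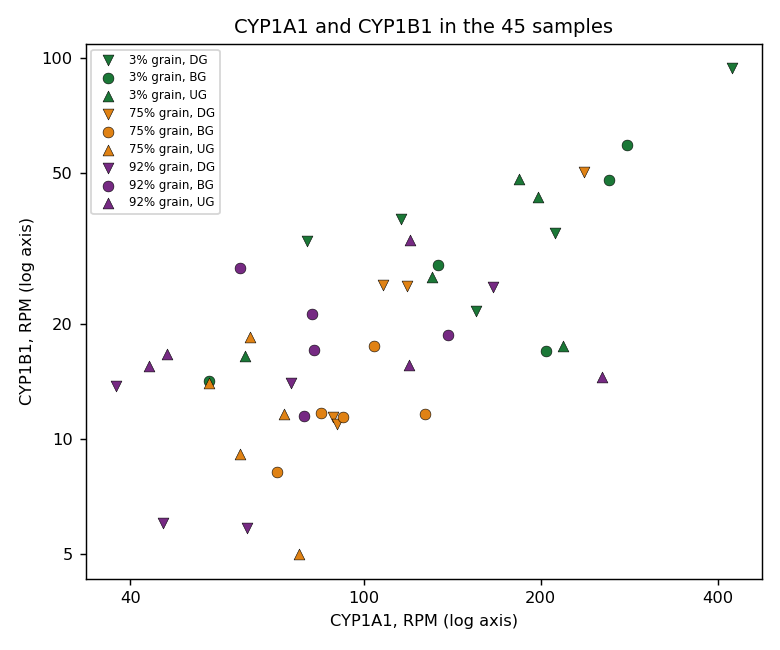
CYP1B1 against CYP1A1 in RPM on log axes for the 45 samples, with colours for the diets and triangles pointing down for DG, circles for BG and triangles pointing up for UG. Samples on 3% grain reach the upper right of the plot, and UG heifer 262 on 92% grain lies at 254 RPM of CYP1A1 with 14.6 RPM of CYP1B1.

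The patterns most like those of the 2 genes are given as a description, since the 45 samples include those in which the pair was chosen for moving together. Over the 45 samples CYP1B1 ranked second of 11515 genes by correlation of log2(RPM + 1) with CYP1A1, and CYP1A1 ranked second for CYP1B1 (r = 0.68), where the median gene stood at -0.12 and -0.10. The gene that ranked first for both was ENSBTAG00000001537 (r = 0.71 with CYP1A1 and 0.69 with CYP1B1), which the files do not name. Its expression was 299 ± 41.0 RPM on 3% grain, 221 ± 28.1 on 75% and 224 ± 25.9 on 92% (SD, n = 15), lower than on 3% grain in 15 of 15 and 14 of 15 heifers, with log2 changes of -0.43 and -0.41, given without a test because the gene was picked for its likeness to CYP1A1 and CYP1B1 in these samples. Next after CYP1A1 in the list for CYP1B1 was ENSBTAG00000017361 (r = 0.67), also unnamed. These correlations hold the diet difference and the pH group pattern that chose the pair as well as the spread among heifers. On the deviations from the group means, CYP1B1 ranked 20 for CYP1A1 and CYP1A1 ranked 181 for CYP1B1.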

How the data were processed

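The authors aligned reads to the bovine UMD 3.1 genome with TopHat2 2.0.10, counted reads per Ensembl gene with HTSeq and deposited RPM, 1 file per sample. Whether strand was used in counting is not given in the sources used here. How reads shared between CYP1A1 and its close relative CYP1A2 were treated is not given there either. The RPM of each sample summed to 1000000, and 100% of the values were whole reads (tolerance 0.1 read), which gave the depth. Over 990 pairs of samples, chi-square per degree of freedom was at least 17.54, so no library was taken as a duplicate. Lanes are not in the labels, so no within-lane values are given.

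Genes were tested with limma 3.58.1 (R 4.3.3) with a variance trend on log2(RPM + 1), on which fold changes of low genes are understated, in the samples compared and with no term for the heifer. Self-tests on simulated data preceded the fits. Single comparisons used exact permutation tests, and correlations used 100000 permutations (numpy 2.4.6, scipy 1.17.1). Alternatives were pseudocounts of 0.1 and 0.5, no expression filter, TMM and median-of-ratios scaling, all 45 samples in one fit, edgeR 4.0.16 on recovered reads, the heifer as a replicate block, and each heifer left out in turn. edgeR with the block and the fits without heifers 170 and 172 were added after seeing the data. Same-numbered samples come from the same heifer, and their deviations from diet means correlated at a median of 0.36 across genes (45 pairs) against -0.02 for other pairs (630).

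The 2 genes and all gene lists were chosen with earlier results of these data known. The genes most like each gene were the 5 with the highest r over 45 samples. Symbols of the 2 genes were assigned from the study's gene lists. The 101 genes of 12 planned lists (AHR pathway and cell type markers) had no Ensembl identifier in the reference table and were not analysed here, and no sequences are shown.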

Additional observations from a re-analysis of the deposited data

Results flagged for a closer look

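In 4 of the 18 combinations of gene, pH group and diet, 1 heifer of the 5 stood apart from the others by Dixon's criterion at the 95% level. The criterion flags about 1 in 20 by chance where values are normally distributed and independent. It was applied here to RPM and not on the log2 scale, and the combinations share heifers and 2 correlated genes. No excess over chance is therefore read from the count. CYP1A1 of DG heifer 236 on 75% grain was 237 RPM, with the next heifer at 118. CYP1A1 of BG heifer 362 on 92% grain was 139 RPM, with the next at 82.1. CYP1B1 of DG heifer 170 on 3% grain was 94.1 RPM, with the next at 37.9, and that sample was also among the 2 least like the others of its diet. CYP1B1 of UG heifer 352 on 92% grain was 33.3 RPM, with the next at 16.7.

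The change of CYP1B1 from 75% to 92% grain was upward in every UG heifer and downward in the DG heifers other than 314. Heifer 314 stayed level (25.4 and 25.0 RPM), and with TMM scaling it rose slightly (24.0 to 24.8). The difference in mean change, DG minus UG, was -19.3 RPM. That difference was not tested, because it is the one by which the gene was chosen.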

How the results depend on the processing

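Both genes kept their direction and their call against 3% grain under each of the 10 alternatives and each of the 15 fits without 1 heifer. The log2 changes without 1 heifer ran from -0.96 to -0.72 (CYP1A1) and -1.25 to -1.04 (CYP1B1) on 75% grain, and from -1.08 to -0.77 and -1.05 to -0.84 on 92% grain. The highest adjusted p over these fits was 0.041 (limma), for CYP1A1 on 92% grain. In the paired limma fit, which has heifers as the replicate block, adjusted p was 0.0101 (CYP1A1) and 0.000376 (CYP1B1) on 75% grain. On 92% grain it was 0.0211 and 0.00388, and the block changed no call. Removing heifer and diet means gave r = 0.76 for the paired deviations. That value keeps the pH group pattern that chose the pair, so it is no check on the deviations within groups. Genes called rose from 177 to 307 and from 238 to 358 with a pseudocount of 0.1. edgeR on the recovered reads called 198 genes on 75% grain (151 higher and 47 lower, against 162 and 15 in limma) and 310 on 92% grain (214 higher and 96 lower, against 205 and 33).

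Without 1 heifer, DG against UG on 3% grain ran from -0.14 to 0.46 for CYP1A1, with the sign turned without 170 (-0.14) and without 286 (-0.10), and from 0.17 to 0.68 for CYP1B1, with 0 to 1 genes called. The correlation on 3% grain ran from 0.56 to 0.77 without 1 heifer and fell to 0.49 and 0.42 without the 2 pairs named above.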

Other observations

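Of the variance of CYP1A1 over the 45 samples on the log2 scale, 26.6% lay between diets, 21.2% between heifers and 52.3% in neither. For CYP1B1 the shares were 34.1%, 32.5% and 33.4%. The medians over all expressed genes were 8.86%, 39.5% and 46.6%, and the SD over the 45 samples was 0.81 for CYP1A1 and 0.86 for CYP1B1 against a median of 0.23 on the log2 scale. Over all 15 heifers, CYP1A1 was lower on 92% than on 75% grain in 9 and CYP1B1 in 6, with mean log2 changes of -0.15 ± 0.93 and 0.16 ± 0.90 (SD, n = 15), given without a test because this step chose the genes.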
